A study of Homo sapiens with 40 samples.

Results

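Chromatin accessibility after 24 h of EGF was compared with that after 12 h of EGF in BT474R cells, using 4 of the 40 ATAC-seq libraries of the study, 2 per time point. ATAC-seq marks open chromatin by the sites at which a transposase can insert sequencing adapters. BT474 is an established line from a ductal carcinoma of the breast with high HER2, and BT474R is a clone grown out of it under the anti-HER2 antibody trastuzumab, so that a result in BT474R describes a single clone. All cells were serum starved before treatment. The groups were BT474R with EGF for 12 h and for 24 h and, beside them, BT474R with vehicle (water) for 12 h and for 24 h, each with 2 libraries, and vehicle and EGF shared no library. Nothing in the labels says whether the replicates came from separate cultures. The p-values for 24 h against 12 h in an arm thus measure only the spread between these libraries, which may be technical. The deposited lists of peaks, one for each library, carry no read totals. Depth was thus unknown, and where a region is said to lack a peak, none was called there. Peaks of the 4 EGF lists that overlapped by at least 1 bp on chromosomes 1 to 22 and X were merged into 53992 regions. A region was called open at 24 h only when it held a peak in 2 of 2 lists at 24 h and in 0 of 2 at 12 h, and at 12 h only for the reverse.

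EGF binds the receptor EGFR, which pairs with HER2 and signals through the RAS and MAP kinase pathway. A well-known end point of this pathway is AP-1, a family of paired FOS and JUN proteins that bind the DNA sequence TGANTCA (N is any base) and are often found at enhancers, the regulatory elements distant from gene starts. EGF signalling also feeds into glycolysis and lipid synthesis, both of which HER2-positive cells use heavily. The libraries were epithelial by their markers: the promoters of 10 of 10 luminal epithelial genes, among them KRT8, EPCAM, GATA3 and ERBB2, held a peak in all 4 EGF lists. No peak was called in any EGF list at the promoters of 6 of 8 fibroblast, 7 of 8 immune and 4 of 7 endothelial marker genes. The promoters of the fibroblast gene COL1A1 and the endothelial genes CDH5, VWF and KDR held a peak in all 4 EGF lists. That of the fibroblast gene FBN1 held a peak in 1 of 2 lists at 12 h and 2 of 2 at 24 h.

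The sequences below were chosen for their AP-1 matches, which 25.4% of regions open at 24 h only held, against 18.7% of all EGF regions. Those shown were 7 regions near genes of the lists described further on, each called both in the lists as deposited and with equal numbers of top peaks, and each with a match in the window printed. Each line gives the hg38 plus strand at the summit of the highest peak and 75 bases to each side of it, with AP-1 matches in capitals.
PFKFB3 chr10:6275361-6275511: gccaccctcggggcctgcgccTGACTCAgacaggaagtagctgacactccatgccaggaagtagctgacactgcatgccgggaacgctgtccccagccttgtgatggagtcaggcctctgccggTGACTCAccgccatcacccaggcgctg
PFKFB3 chr10:6299299-6299449: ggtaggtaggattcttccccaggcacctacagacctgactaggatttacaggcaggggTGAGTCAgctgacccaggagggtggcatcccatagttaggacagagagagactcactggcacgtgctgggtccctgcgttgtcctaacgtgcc
PFKFB3 chr10:6314654-6314804: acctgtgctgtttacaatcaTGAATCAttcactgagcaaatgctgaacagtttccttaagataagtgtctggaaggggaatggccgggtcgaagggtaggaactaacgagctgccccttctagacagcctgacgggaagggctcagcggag
EGLN3 chr14:34052102-34052252: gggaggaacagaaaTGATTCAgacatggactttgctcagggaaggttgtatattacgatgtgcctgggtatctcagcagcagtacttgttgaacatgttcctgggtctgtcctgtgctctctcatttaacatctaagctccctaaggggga
INSIG1 chr7:155291160-155291310: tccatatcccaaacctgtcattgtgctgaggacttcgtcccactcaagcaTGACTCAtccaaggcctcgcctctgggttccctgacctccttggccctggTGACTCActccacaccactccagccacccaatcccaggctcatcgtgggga
HMGCS1 chr5:43281898-43282048: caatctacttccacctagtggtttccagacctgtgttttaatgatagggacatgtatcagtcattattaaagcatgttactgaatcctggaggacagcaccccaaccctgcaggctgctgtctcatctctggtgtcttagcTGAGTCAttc
ITGB6 chr2:160208263-160208413: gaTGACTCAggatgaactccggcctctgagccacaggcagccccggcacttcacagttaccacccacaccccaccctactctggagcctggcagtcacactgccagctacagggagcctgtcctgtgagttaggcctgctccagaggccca

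The lists were longer at 24 h than at 12 h. The EGF libraries at 12 h held 38205 and 37476 peaks and those at 24 h held 52126 and 51080, so that the means differed by 13762 (two-sided exact permutation p = 0.33, with adjusted p = 0.786 over 66 tests). With 2 libraries against 2 no p below 0.33 can be reached, so that no difference between times could pass a threshold. The vehicle libraries held 32479 and 40331 peaks at 12 h and 41833 and 45799 at 24 h, a difference of 7411 (exact p = 0.33). In both arms each 24 h library exceeded each 12 h library, and the EGF difference was larger than the vehicle difference by 6352 peaks (exact p = 0.278 over 36 arrangements, adjusted p = 0.786, of which the smallest possible p is 0.0556). The test over 36 arrangements exchanged EGF and vehicle labels within each time, so the gap between the arms at each time enters its p. It does not measure the spread between replicates, and no conclusion is drawn from it. The excess of 6352 depended on the vehicle libraries at 12 h, since it was 10278 without replicate 1, the short list, and 2426 without replicate 2. Peaks covered 23.2 Mb ± 0.513 at 12 h and 33.2 Mb ± 0.622 at 24 h of EGF (SD, n = 2 each), and 21.9 Mb ± 3.15 and 28.1 Mb ± 1.5 with vehicle.

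**Figure D1:**
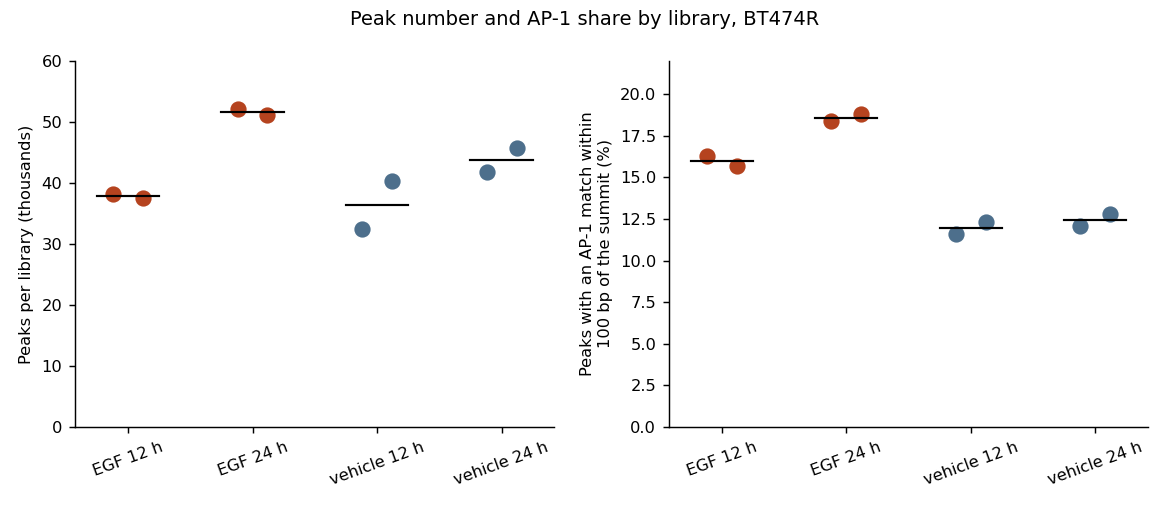
Number of peaks per library (left, axis in units of 1000) and share of peaks with an AP-1 match within 100 bp of the summit in percent (right), for EGF and vehicle at 12 and 24 h in BT474R. Points are libraries, 2 per group, and lines are group means; both 24 h EGF libraries lie above both 12 h EGF libraries in both panels.

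Nearly all regions that separated the times were open at 24 h. Of the 53992 EGF regions, 10320 (19.1%) were open at 24 h only and 83 (0.154%) at 12 h only, 34250 were open in all 4 lists, and 5215 were open in 1 list of 24 h alone. In bulk cells a higher share of cells with an open region and more opening per cell cannot be told apart. Of the 47125 regions merged from the 4 vehicle lists, 3398 (7.21%) were open at 24 h only and 43 (0.0912%) at 12 h only. The share of separated regions that were open at 24 h was 99.2% with EGF and 98.8% with vehicle. Leaving out each EGF library in turn gave 11762 to 13712 regions at 24 h only. The vehicle count was less stable: it was 9202 without replicate 2 at 12 h and 7084 without replicate 1 at 24 h, each below the EGF counts, so that the size of the gap between the arms depends on which vehicle libraries are taken.

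The direction was much less one-sided when each of the 8 lists was cut to its 32479 highest-scoring peaks, the length of the shortest list. The EGF lists then gave 36362 regions, with 1687 (4.64%) open at 24 h only and 1185 (3.26%) at 12 h only, so that 58.7% of the separated regions were open at 24 h. The vehicle lists gave 36134 regions, with 1127 (3.12%) and 667 (1.85%), or 62.8% at 24 h. Cutting ranks peaks within a list, and 1138 of the 1185 EGF regions of the 12 h class (96%) held a peak in both full 24 h lists, so that they were lower in rank at 24 h and not without a peak. Of the 1687 regions of the 24 h class, 785 had no peak in either full 12 h list and 401 had one in both. The regions that were called in both ways, 785 at 24 h only (1.45% of the 53992) and 19 at 12 h only (0.0352%), are the strictest set. In vehicle, 404 (0.857% of the 47125) and 12 (0.0255%) were called in both ways.

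**Figure D2:**
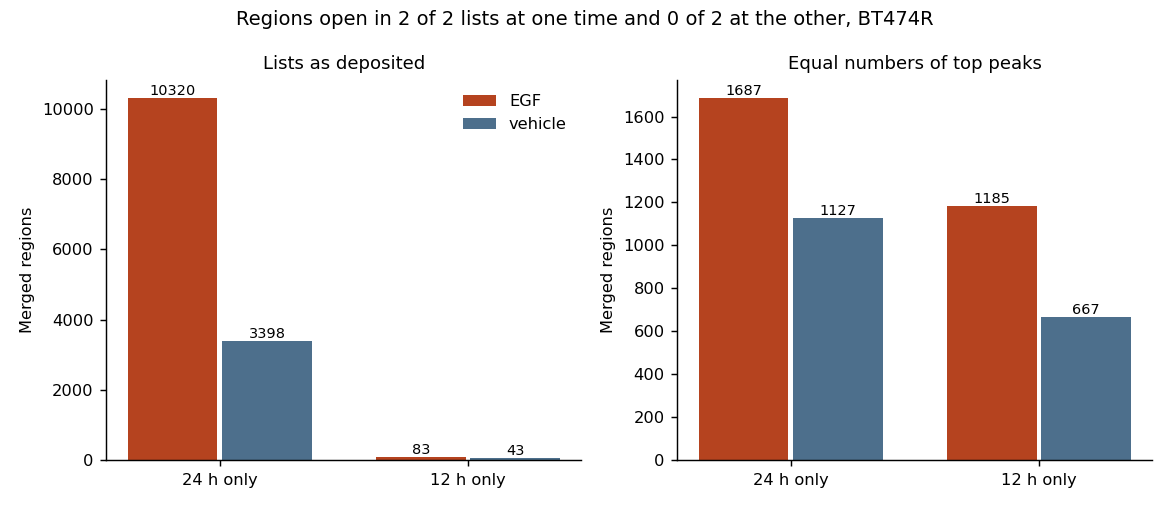
Number of merged regions open in 2 of 2 lists at a time and 0 of 2 at the other, for EGF and vehicle in BT474R, with the lists as deposited (left) and with the 32479 top peaks of each list (right). Bars are counts; the 10320 against 83 regions of EGF become 1687 against 1185 when list length is equal.

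The regions open at EGF 24 h only differed in sequence according to their state in the vehicle lists. Of the 10320 regions, 4474 (43.4%) held no peak in any of the 4 vehicle lists, and an AP-1 match stood within 100 bp of the summit in 46.7% of them (Wilson 95% interval 45.2% to 48.1%). A further 1876 (18.2%) were also open at 24 h only by the vehicle lists, in 2 of 2 against 0 of 2, and 7.94% of these held AP-1 (6.8% to 9.25%). Of the 2270 regions with a vehicle peak at 12 h, 6.39% held AP-1, against 18.7% of all 53992 EGF regions. In the stricter set of 785 the same split gave AP-1 in 69.5% of the 239 regions without a vehicle peak and in 19% of the 247 that were open at 24 h only in vehicle too. Of the 2623 regions with AP-1 that were open at 24 h only, 79.6% held no vehicle peak. These intervals cover the counting of regions only, and regions of a library are not independent replicates.

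AP-1 was frequent in EGF regions without a vehicle peak at either time. Over all EGF regions, 9508 had no vehicle peak and 41.2% of them held AP-1, and 4474 of the 9508 were open at 24 h only. With equal list lengths, 46 of the 1185 regions at 12 h only had no vehicle peak, and 47.8% of those held AP-1. The vehicle regions open at 24 h only showed no such share: 12.6% held AP-1, beside 12.7% of all vehicle regions. The groups overlapped in part: 1867 of the 10320 EGF regions (18.1%) and 1865 of the 3398 vehicle regions (54.9%) open at 24 h only coincided.

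**Figure D3:**
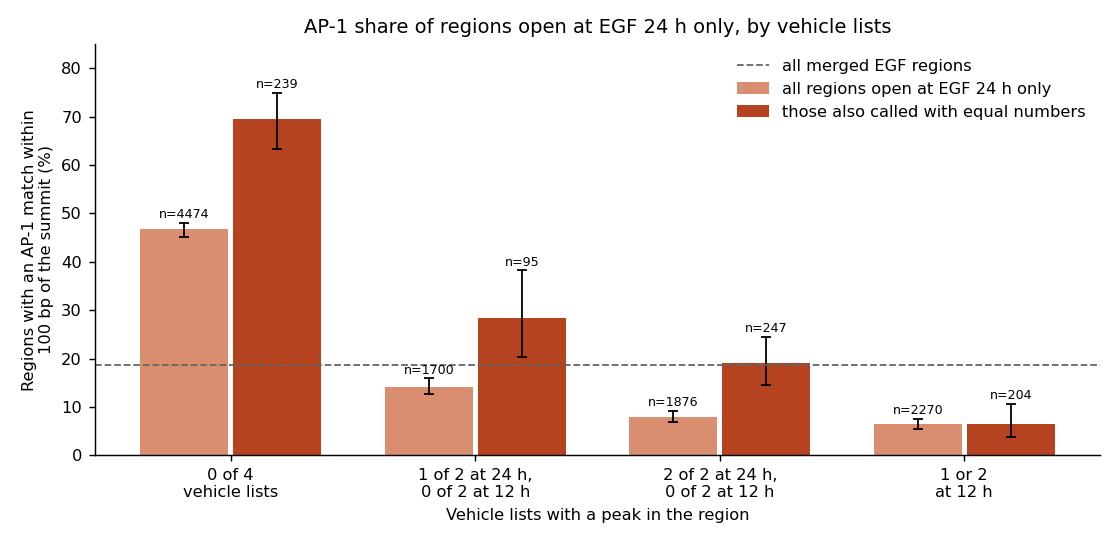
Share of regions open at EGF 24 h only that hold an AP-1 match within 100 bp of the summit, in percent, by the number of vehicle lists with a peak there. Bars are shares, error bars Wilson 95% intervals, n the regions and the dashed line all merged EGF regions at 18.7%; the share is highest, 46.7% and 69.5%, where no vehicle list held a peak.

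Most regions open at 24 h only were weak peaks, and the AP-1 share did not come from the weak ones alone. A rank percentile gives the place of a peak among the scores of its own list, 100 being the highest, and the median of the 10320 regions at 24 h was 17.6 (interquartile range 10.4 to 27.1, highest 89.1) against 66.3 for regions open in all 4 lists. Within the band of ranks from 10 to 20, 25.2% of the 3534 regions at 24 h only held AP-1 and 10.1% of the 572 regions open in all lists. Between ranks 30 and 50 the shares were 29.3% of 1722 and 18.5% of 7121, and above rank 50 they were 31.5% of 286 and 16.2% of 24885. In vehicle the bands of the 24 h class lay between 8.29% and 14.5%.

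**Figure D4:**
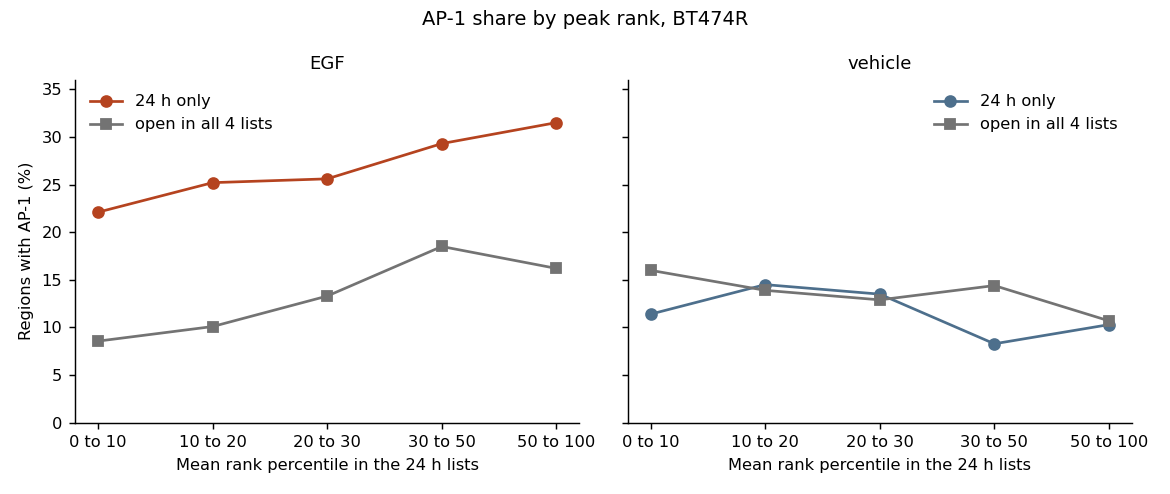
Share of regions with an AP-1 match, in percent, against the band of mean rank percentile in the 24 h lists, for EGF (left) and vehicle (right). Circles are regions open at 24 h only and squares are regions open in all 4 lists; the EGF circles lie above the squares in each band, from 22.1% to 31.5%.

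The per-library shares showed the same order without any calling of regions. AP-1 matches were found in 16.3% and 15.7% of the peaks at EGF 12 h and in 18.4% and 18.8% at EGF 24 h, a difference of 2.53 percentage points (exact permutation test, p = 0.33, adjusted p = 0.786). In vehicle the shares were 11.6% and 12.3% at 12 h and 12.1% and 12.8% at 24 h, which overlapped (difference 0.476 points, exact p = 0.667, adjusted p = 0.815). Each EGF library was above each vehicle library at both times. The EGF difference exceeded the vehicle difference by 2.06 points (exact permutation p = 0.556, adjusted p = 0.815). That test exchanged EGF and vehicle labels within each time, so the gap between the arms at each time enters its p. It does not measure the spread between replicates, and no conclusion is drawn from it. The SDs at 12 and 24 h were 0.424 and 0.253 points with EGF and 0.544 and 0.473 with vehicle (n = 2 each). With equal numbers of top peaks the differences were 1.65 points for EGF and 0.057 points for vehicle. Where the 24 h only regions held AP-1, 34.8% of the nearest matches lay within 20 bp of the summit, with a median distance of 32 bp, much as in all EGF regions with AP-1 (35.1%, 32 bp).

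Of the other 18 motifs searched on both strands, none exceeded its share of all EGF regions by as many percentage points in the 24 h class. GGGCGG, the GC box bound by SP factors and common at promoters, was found in 14.8% of regions at 24 h only against 23.3% of all EGF regions. CCGGAAGT, bound by ETS factors, was in 0.601% against 1.76%. TGACTCAGC, the NFE2 site, which contains an AP-1 site, was in 1.83% against 1.58%. The motif of CTCF, a factor that bounds chromatin loops, was in 3.59% against 2.86%, but in 0.255% of the 785 called in both ways. AGATAA, a site of the zinc finger factors that include GATA3, was in 7.63% against 7.1%. TGTTTAC, a site of the forkhead factors that include FOXA1, was in 7.24% against 7.26%. TTGCNNAA, to which CEBP factors bind, was in 10.9% against 10.3%. TTCNNNGAA, to which STAT factors bind, was in 5.49% against 5.23%. GGAATGT, bound by TEAD factors of the Hippo pathway, was in 3.45% against 3.54%. The NF-kB motif was in 1.03% against 0.995%, and that of interferon-regulated factors (ISRE) in 1.81% against 1.57%. GCCNNNGGC, bound by TFAP2 factors, was in 16.9% against 18.7%, and CACGTG, the E-box bound by MYC among others, was in 3.75% against 4.65%. TGTGGTT, bound by RUNX factors, was in 4.38% against 4.18%. TGACGTCA, bound by CREB, was in 0.359% against 0.822%, and AACCGGTT, bound by grainyhead-like factors, was in 0.203% against 0.296%. The steroid and estrogen response elements were each found in at most 0.0111% of regions in either set.

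The 24 h class, which held weaker peaks, lay further from gene starts than open regions as a whole. A promoter, here any region within 1 kb of an annotated start of a protein-coding or lncRNA transcript, made up 2463 of the 10320 regions (23.9%), against 35.2% of all EGF regions and 42.2% of those open in all lists. The remainder were 3729 in introns, 3851 between genes and 277 in exons. At like rank, in each band up to 50, the class held more promoters than regions open in all lists. The shares were 21.4% and 13.3% between ranks 10 and 20, and 30.7% and 23.5% between ranks 30 and 50. Above rank 50 the class held fewer, 37.1% against 50%. The vehicle class held 31.8% promoters, against 37.9% of all vehicle regions. Among the 4474 EGF regions without a vehicle peak 14.7% were promoters, and among the 1876 shared with vehicle 37.9%. The 24 h class was narrow, with a median width of 353 bp against 690 bp for regions open in all lists, and a median of 617 bp in the stricter set. Promoters and distal regions had different AP-1 shares, 13.2% and 29.2% of the 24 h class, beside 8.64% and 24.1% of all EGF regions.

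Many regions open at 24 h only had been open in the same cells before 12 h. Of the 10320, 8471 (82.1%) were overlapped by a peak in at least 1 of the 8 BT474R libraries at 0 and 1 h, and 2223 (21.5%) in all 8. In the EGF libraries at 1 h, 4276 (41.4%) were open in 2 of 2. The 1849 regions open in none of the 8 held AP-1 in 61.5%, and the 2223 open in all 8 in 10.4%. Only 1119 regions (10.8%) were without a peak in the other 16 BT474R libraries, and 72.5% of these held AP-1. Of the regions without AP-1, 78.4% and 76% held a peak in the libraries of vehicle 1 h, 5.46% and 26.9% in those of vehicle 12 h, and 49.2% and 63.6% in those of vehicle 24 h. Of the regions with AP-1 the shares were 35.3% and 31.5%, 1.26% and 5.26%, and 11.3% and 17.7% at the same times. Outside the 4 EGF libraries that defined the class, both kinds of region were least often open in the 12 h vehicle libraries, which were also the shortest of those lists, with 32479 and 40331 peaks against 56494 and 54256 at vehicle 1 h. The part of list length in this order was not tested.

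Heregulin (HRG), which binds HER3 and HER4, was the other growth factor of the study, and its replicates at 24 h differed widely. Of the AP-1 regions of the EGF 24 h class, 54.4% held a peak in replicate 1 of HRG at 24 h, a list of 55289 peaks, and 20.1% in replicate 2, of 44351 peaks. In BT474, the parental line, 42.3% and 43% of them held a peak after EGF for 24 h and 26.2% and 22.8% after vehicle for 24 h. After HRG for 24 h the BT474 shares were 43.6% and 42.8%, much as after EGF. The BT474 lists were of similar length in these libraries, between 50579 and 56363 peaks.

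**Figure D5:**
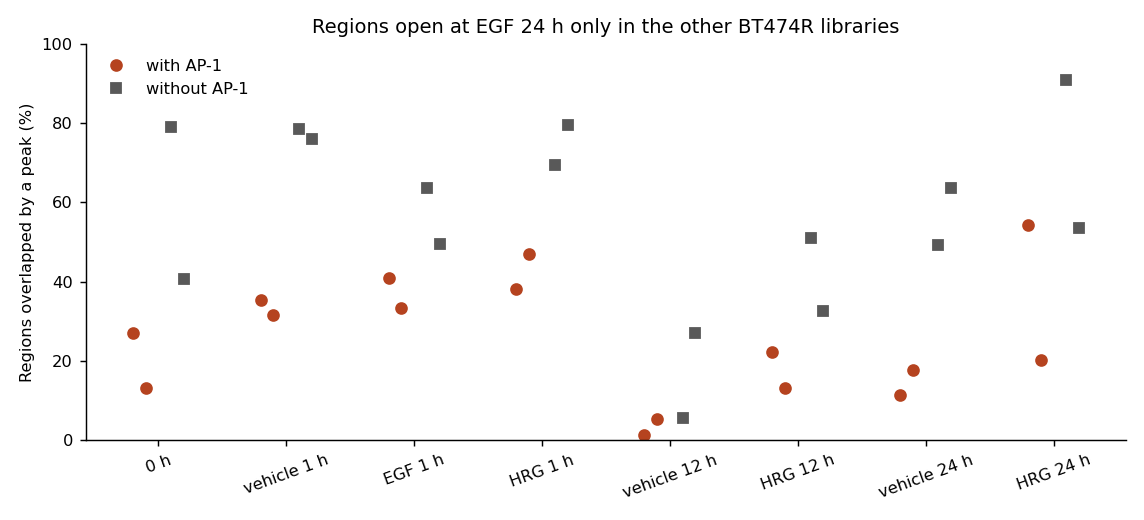
Share of the regions open at EGF 24 h only that are overlapped by a peak in each other BT474R library, in percent, for the 2623 regions with AP-1 (circles) and the 7697 without (squares). Each point is a library, 2 per group; the regions with AP-1 are below those without in every library, and both are lowest at vehicle 12 h among the libraries shown.

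Genes of sterol and fatty acid synthesis had several strong regions of the 24 h class, and 2 of the 6 highest-ranked regions of the stricter set were nearest to such a gene. HMGCS1, which makes HMG-CoA for cholesterol synthesis, had the highest-ranked region, chr5:43285455-43287308, 0.647 kb past the annotated 3′ end of the gene and within 1 kb of an annotated lncRNA start. It ranked at 88.1 and 90.1 at EGF 24 h, had no peak at EGF 12 h, and in vehicle had a peak only in replicate 2 at 24 h, at 67.7. INSIG1, which holds back the transcription factor SREBP, had a region 2.99 kb past its 3′ end, chr7:155312563-155313996. It ranked at 71.6 and 82.5 at EGF 24 h and at 42.9 in the same vehicle library. The region chr1:155320474-155322447 covered the start of RUSC1 and lay within 5 kb past the 3′ end of FDPS, which makes farnesyl diphosphate in the sterol pathway, at ranks 84.6 and 86.2 with EGF and 26.8 in that vehicle library. FDPS was in no list and was named after its values were seen. None of the 6 highest-ranked regions, these 3 among them, held AP-1 within 100 bp of its summit. All 6 were also open in 2 of 2 HRG lists at 24 h.

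FASN, the fatty acid synthase, had 3 regions open at EGF 24 h only among the 5 regions nearest to it. The region chr17:82072895-82073836, 4.93 kb past its 3′ end, ranked at 42.7 in both EGF 24 h libraries and had no peak in any other BT474R library nor in BT474. The region chr17:82080108-82082777 lay inside the gene, 16.6 kb from its main start. Its summit was 0.909 kb from another annotated start of FASN, so that it counted as a promoter. It ranked at 56.7 and 74.3 at EGF 24 h and at 2.75 and 32.2 at vehicle 24 h. SCD, the stearoyl-CoA desaturase, had a region 7.37 kb past its 3′ end, chr10:100371797-100372327. It ranked at 26.2 and 32.2 at EGF 24 h and at 23.8 in a vehicle library at 24 h. This SCD region and chr17:82080108-82082777 were also open in 2 of 2 HRG lists at 24 h. The main promoters of HMGCS1, INSIG1, FASN and SCD held peaks in all 4 EGF lists. The sites with AP-1 printed for INSIG1, 6.54 kb before its start, and for HMGCS1, 5.5 kb past its end, ranked at 42.5 and 43.7 and at 63.2 and 73.8. The INSIG1 site had no vehicle peak and the HMGCS1 site had one, at 43.3, in replicate 2 at 24 h.

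Over the 14 genes of lipid synthesis, 28 of the 117 regions whose nearest coding start within 100 kb was a member were open at EGF 24 h only (23.9%), 6 of them in both ways, and 0 at 12 h only. The share over all protein-coding genes was 18.5%, and the vehicle share for the list was 6.67% beside 7.09% over all. Windows of 5 kb past gene ends, promoters left out, held 4.07% of the 24 h class, 5.1% of the stricter set and 3.72% of all EGF regions. The corresponding vehicle shares were 3.3%, 1.49% and 3.72%. The windows were examined after these genes had been seen.

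The genes of hypoxia and glycolysis had 47 of 181 regions open at EGF 24 h only (26%), 10 in both ways, and 1 at 12 h only, beside 18.5% at 24 h only over all protein-coding genes. In vehicle the list had 7.14% at 24 h only, beside 7.09% over all, and EGLN3 alone gave 11 of the 47 EGF regions. PFKFB3, whose product raises the flux through glycolysis, had 6 of its 11 regions in the 24 h class. The 3 called in both ways lay 20.8, 44.7 and 60.1 kb past the 3′ end of the gene and are printed above. They ranked at 41.3 and 49.6, at 41.2 and 41.1, and at 53.7 and 59 in the EGF 24 h libraries, held AP-1, and had no peak at EGF 12 h nor in any of the 4 vehicle lists. The first had no peak in any other BT474R or BT474 library. The second was open in 2 of 2 HRG lists at 24 h in BT474R, and the third in 1 of 2. The PFKFB3 promoter held a peak in all 8 lists.

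EGLN3, an oxygen sensor that marks HIF proteins for decay, had 11 of 40 regions in the 24 h class, 3 in both ways. Its AP-1 region, in an intron, ranked at 60.1 and 57.1 at EGF 24 h and at 32.1 and 25.7 at vehicle 24 h, with no peak at 12 h in either arm. An intronic region of 915 bp without AP-1 ranked at 55.7 and 49.2 at EGF 24 h, at 24.8 and 28 at vehicle 24 h and at 11.3 in a vehicle library at 12 h. NDRG1, a hypoxia-induced gene, had 4 regions, 2 in both ways. Of these 2, the region within 1 kb of the start ranked at 40.6 and 53.6 at EGF 24 h and at 39 and 34.4 at vehicle 24 h. It also ranked at 22.2 in a vehicle library at 12 h. These 2 genes thus had regions that were open with vehicle too, unlike the 3 at PFKFB3.

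Promoters open at EGF 24 h only were 853 of those of 19962 protein-coding genes (4.27%), with 2 at 12 h only, against 449 (2.25%) in vehicle. Over the gene lists, markers left out, these were 9 of 211 genes (4.27%), all at 24 h, so that the listed genes had no higher share than all genes. In the inflammatory list they were ICAM1, a leukocyte adhesion molecule, at ranks 10.1 and 10.1 with no vehicle peak, and CXCL2, a chemokine, at 29.6 and 21.2 with 1 vehicle peak at 24 h. Of the 12 other BT474R libraries (0 h, 1 h or HRG), CXCL2 was open in 7 and ICAM1 in 1. Near the 20 genes of that list 19 of 60 regions were open at EGF 24 h only (31.7%), beside 18.5% over all protein-coding genes, and 2.27% in vehicle, beside 7.09%. With equal list lengths 2 of 37 were (5.41%, beside 4.51% over all), with 3 at 12 h only. DUSP5, a phosphatase that acts on ERK in the nucleus, was the only one of the 9 also called with equal numbers, at 50.4 and 44.1, but with ranks of 48.5 and 40.8 at vehicle 24 h and 13.1 in a vehicle library at 12 h. Around the 17 MAPK feedback genes 38 of 152 regions were open at EGF 24 h only (25%), and 8.06% in vehicle, beside the same 18.5% and 7.09%.

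The other promoters were weak. CD44, an adhesion receptor, ranked at 17.6 and 18.7, and ITGB6, an integrin subunit, at 15.1 and 14. Both were open at vehicle 24 h in 2 of 2 lists, and CD44 also at vehicle 12 h in replicate 2, at 22. Each was open in 11 of the 12 other BT474R libraries (0 h, 1 h or HRG). The AP-1 region 8.02 kb before ITGB6 was stronger, at 47.2 and 55.1, and had no peak in the vehicle lists at 12 and 24 h. It was open in 8 of the 12 other BT474R libraries, among them 2 of 2 at EGF 1 h, and in 17 of 20 BT474 libraries. The interferon-induced genes GBP2 and OAS3 ranked at 12 and 11.2 and at 14.6 and 3.48. The receptor ERBB4 and the cell cycle inhibitor CDKN2B ranked at 8.94 and 3.12 and at 29.1 and 12.6. CDKN2B was open at 24 h only in vehicle too, at 6.02 and 31.4. In the 4 vehicle lists at 12 and 24 h, GBP2 and ERBB4 each had 1 peak, at 24 h, and OAS3 had none. Of the 12 other BT474R libraries (0 h, 1 h or HRG), CDKN2B was open in 12, GBP2 in 11, OAS3 in 4 and ERBB4 in 3. Each of these promoters was open in 20 of 20 BT474 libraries. The shares of regions at 24 h only near members were 22.3% for integrins, matrix and invasion, 17.6% for AP-1 and immediate early genes, 16.2% for interferon and antigen processing, 14.1% for keratins, 13% for ERBB receptors and ligands, 12.3% for luminal transcription factors and 10% for cell cycle genes.

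Some other genes gathered several strong regions of the 24 h class. ALDH3B2, an aldehyde dehydrogenase, had 8 of 19 regions there, 3 in both ways. Its strongest lay 0.767 kb from a start and ranked at 75.6 and 71.6 with EGF and at 72 and 63.7 with vehicle at 24 h. DENND1B, a regulator of membrane traffic, had 3 in both ways, of which the one at chr1:197799187-197799677, 23.8 kb before the gene, held AP-1 and ranked at 53.1 and 50.8 with no vehicle peak. ABTB2 had an intronic region with AP-1, chr11:34234082-34234796, at 56 and 59.1 with no peak in the vehicle lists at 12 and 24 h. This region was open in 9 of the 12 other BT474R libraries (0 h, 1 h or HRG), among them 2 of 2 at EGF 1 h and 1 of 2 at 0 h. TOM1, which acts in endosomal sorting, had 3 without AP-1, all of which were also open in 2 of 2 vehicle lists at 24 h. UCP2, a carrier of the inner mitochondrial membrane, had a region 2.21 kb past its 3′ end, also past that of DNAJB13, at 84 and 80.9 with EGF and at 32.9 and 66.9 with vehicle at 24 h. A region in an intron of TTC1, which PWWP2A overlaps, ranked at 80.8 and 78.8 with EGF and at 40.4 and 65.6 with vehicle at 24 h. In MTSS1, which binds actin and membranes, an intronic region at 84.8 and 82.6 was without a peak at EGF 12 h, but ranked at 93.1 and 85.5 at vehicle 24 h and at 48.2 and 20.3 at vehicle 12 h.

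The 12 h class was small and had a higher share than other regions on chromosomes 17 and 20, which carry amplified segments in BT474. Of its 83 regions, 31 (37.3%) were on these chromosomes, against 9.62% of all EGF regions, and 11 of the 18 on chromosome 17 lay between 39 and 41 Mb, the part that holds ERBB2. In vehicle 28 of 43 (65.1%) were on these chromosomes, and with equal list lengths 192 of the 1185 EGF regions (16.2%) were, against 10.2%. CDK12, a kinase of RNA polymerase II, had 3 regions called in both ways. Of these chr17:39560587-39561913 ranked at 42 and 41.6 at EGF 12 h and at 55.6 and 6.79 at vehicle 12 h, with no peak at 24 h in either arm. The region in CACNB1, a calcium channel subunit, chr17:39191283-39192721, ranked at 57.3 and 63.7 at EGF 12 h and was open in 3 of 4 vehicle lists. Regions in PMEPA1, which dampens TGF-beta signalling (55 and 52.7), and in PSMD3, a proteasome subunit (40 and 35.3), were open in all 4 vehicle lists, as was a region near RUNX1T1 (29.9 and 25.5). The region near BCAS1 on chromosome 20, at 17.9 and 20.7, was open in 2 vehicle lists. Copy number was not measured here, and its part in these calls was not tested. TGTTTAC was found in 20.5% and AGATAA in 18.1% of the 83 regions, and in 12.2% and 10.5% of the 1185, against 6.91% and 6.36% of all regions with equal list lengths. In the vehicle 12 h class they were in 9.3% and 18.6% of the 43 regions. With equal list lengths they were in 12.3% and 13.6% of that vehicle class, against 7.56% and 6.32% of all vehicle regions.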

How the data were processed

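The authors trimmed reads with Trim Galore 0.6.6, mapped them to GRCh38 with BBMap and called peaks in each library with Genrich, removing mitochondrial reads and blacklisted regions. The deposited score of each peak (the area under its curve of significance, lowest value 200) depends on its own library, so it was used for ranks and thresholds inside each list and for nothing else. Genrich's options (not given in the sources used here) can change peak width and number. No count model was possible on peak lists.

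Peaks on chromosomes 1 to 22 and X were used (25 to 28 others per library left out). Promoters and nearest protein-coding starts within 100 kb came from GENCODE release 44, and motifs were searched in hg38 within 100 bp of the summit of the highest peak. Per-library values were compared by exact two-sided permutation, with Benjamini-Hochberg adjustment over 66 tests. Region classes, shares and gene lists carry no test, since regions are not replicates. The members and lists were chosen with earlier results of these data known, some lists for themes the study discussed. Genes were named if a list gene's promoter was separated between times, if a list gene had 2 or more regions called in both ways, or if a gene was nearest to the 6 highest-ranked regions per direction called in both ways or to most such regions (6 genes for 24 h, 3 for 12 h). The other lipid synthesis genes with regions in the 24 h class were examined too. Alternatives were equal list lengths, a score of at least 400, peaks trimmed to 200 bp each side of the summit, 50% of a region covered, merging over 8 lists, each library left out, a replicate block, promoters within 3 kb, motifs within 250 bp and genes within 10 kb. The result for 1 marker gene is not reported here. Merging and motif search were tested on simulated data. Python 3.11.15, pandas 2.3.3, NumPy 2.4.6, SciPy 1.17.1, pysam 0.24.0 and Matplotlib 3.10.9 were used.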

Additional observations from a re-analysis of the deposited data

How the results depend on the processing

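The 24 h only counts kept within 1.5 times of the main values (10320 with EGF, 3398 with vehicle) with a score of at least 400, trimmed peaks, 50% coverage and merging over 8 lists, and were 1687 and 1127 with the 32479 top peaks. With the shortest of the 4 lists of a comparison as the length they were 1949 with EGF and 1127 with vehicle. The 12 h only counts (83 and 43) were 1185 and 667 with the top peaks, 1321 and 667 with the shortest of 4 lists, 29 and 19 with a score of at least 400, and 674 and 427 with trimmed peaks. Leaving out each library gave 11762 to 13712 and 3538 to 9202 regions at 24 h only, and 144 to 192 and 75 to 713 at 12 h only. The causes were not tested, beyond the cut of list length itself.

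AP-1 shares of the EGF 24 h class (25.4%) were 30.2% with equal list lengths, 32.5% with motifs within 250 bp, 23.5% with a score of at least 400 and 23.1% to 25.3% without each library. In regions without a vehicle peak (46.7%) they were 55.4%, 54.6%, 43.9% and 39.2% to 47.9%, and in those with 1 or more (9.15%) they were 10.7%, 15.7%, 8.72% and 8.2% to 10.2%. For vehicle (12.6%) they were 11.8%, 19.9%, 12.4% and 12.2% to 14.6%. Promoter shares of the 24 h class (23.9% with EGF, 31.8% with vehicle) were 32.7% and 42.8% with equal list lengths, 30.3% and 40.7% with a score of at least 400, 12.4% and 19.5% by canonical coding starts only, and 23.1% to 24.7% and 26.8% to 31.7% without each library. The score filter, the trimming and the canonical starts were chosen for these shares after seeing the data.

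The promoter share of peaks per library turned direction with equal list lengths: the 24 h minus 12 h difference went from −4.99 to 1.08 points with EGF, from −3.06 to 1.07 with vehicle, and from −1.93 to 0.0139 for their difference, which was 0.182 without replicate 2 of vehicle at 12 h and between −4.04 and 0.182 over all libraries left out. Of the other 18 motifs, 10 turned direction in EGF with equal list lengths. With each library left out, the differences in peaks were 13240 to 14286 (EGF), 3485 to 11337 (vehicle) and 2426 to 10278 (their difference), in covered length 9.49 to 10.4, 4.01 to 8.47 and 1.46 to 5.92 Mb, and in AP-1 share 2.23 to 2.83, 0.0918 to 0.861 and 1.67 to 2.44 points. With equal list lengths the gene list shares were 11.8% for hypoxia and glycolysis, 8.75% for lipid synthesis, 5.41% for inflammatory and 8.65% for MAPK feedback genes, beside 4.51% over all protein-coding genes.

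Same-numbered libraries were not paired by the data: the correlation of their replicate differences was −0.00101 with EGF and 0.0167 with vehicle over 26871 regions. A replicate block left the counts at 10320, 83, 3398 and 43, since a region open in 2 of 2 against 0 of 2 lists is so in each pair, and gave p = 0.5 (exact test over sign changes, the smallest possible) for each of the per-library differences.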
